A study of Mus musculus with 6 samples.

Results

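The lysosomal proteases of macrophages and monocytes were followed through 10 genes: the cysteine cathepsins Ctsb, Ctsl, Ctss, Ctsc, Ctsh and Ctsz, the asparaginyl endopeptidase gene Lgmn (legumain), the aspartic cathepsin Ctsd, the serine carboxypeptidase Ctsa, and Cst3, which encodes the secreted inhibitor cystatin C. They were taken by gene symbol from a table of read counts for 46603 genes, and all 10 passed the filter on low counts that left 15440 genes for testing. RNA-Seq had been performed on CD11B+ cells of injured mouse kidneys, with 3 libraries from PTEC DN RAR mice and 3 from Cre– controls. Both groups were males of 10 to 12 weeks that carried Rosa26-LSL-RARaT403X, an allele that makes a truncated, dominant negative retinoic acid receptor alpha once Cre has removed a stop cassette. In PTEC DN RAR mice PEPCK CRE removed it, mainly in proximal tubular epithelial cells (PTECs). The controls carried the same allele without Cre. According to the paper, PTEC DN RAR mice were homozygous for this allele, and the Cre line had a mixed strain background. All mice underwent bilateral clamping of the renal pedicles for 28 minutes (ischemia/reperfusion AKI, IRI-AKI), and cells were pulled down with CD11B antibody-coated beads on day 3. The engineered receptor was thus directed to the tubule, while the RNA measured came from the bead fraction. It was not stated in the sources used here whether cells of several mice were pooled, so p values measure the spread between these libraries.

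Cathepsins are made as inactive precursors, carried to the lysosome by sorting receptors that recognize mannose 6-phosphate, and activated there by low pH and by one another. In macrophages they digest engulfed debris, trim the invariant chain and antigens for MHC class II, and can be released to act on extracellular matrix. Cystatin C is secreted in large amounts by many cells and blocks the papain-like cysteine cathepsins and, through a separate site, legumain; it does not block the aspartic or serine enzymes.

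The libraries held 29318041 to 46517005 reads counted to genes. The lowest count of any of the 10 genes in any library was 9354, for which counting error alone is 1.03%, so the spread between libraries and not depth limited these comparisons. CD11B itself (Itgam) was detected at 980 to 1995 CPM (the share of a library's reads on a common scale, with libraries scaled by the trimmed mean of M values, TMM) and was lower in PTEC DN RAR libraries (log2 fold change −0.64, SE 0.14, edgeR adjusted p = 0.00818), while Adgre1 (F4/80) differed by 0.09 (SE 0.14, edgeR adjusted p = 0.626). Transcripts of kidney epithelium were present in every library and were higher in PTEC DN RAR libraries: all 16 proximal tubule markers passed the test as higher, from Gatm (0.39) to Slc22a8 (2.59), with summed levels of 1050 to 1210 CPM in controls and 2574 to 3874 CPM in PTEC DN RAR libraries and no marker at 0. Markers of the thick ascending limb summed to 1027 to 1447 CPM in controls and 3574 to 6938 CPM in PTEC DN RAR libraries. Mitochondrial reads made up 5.03% to 8.77% of gene counts in controls and 10.4% to 12.1% in PTEC DN RAR libraries. Rara, the endogenous gene of the targeted receptor, was at 41.96 ± 5.75 CPM in controls and 33.3 ± 3.72 CPM in PTEC DN RAR libraries (SD, n = 3 each; edgeR adjusted p = 0.0628), which does not measure the allele in tubular cells.

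The 10 genes lie on 7 chromosomes of GRCm38, 3 of them (Ctsa, Ctsz and Cst3) on chromosome 2 and Ctsc and Ctsd on chromosome 7. Ctsd covers chr7:142375911-142388038 and Ctsl covers chr13:64359337-64370890, both on the minus strand, and Ctsb covers chr14:63122462-63145923 on the plus strand. Exons of Ctsa overlap those of Pltp and Neurl2, those of Ctsb overlap Fdft1, and those of Ctsz overlap Nelfcd, each on the opposite strand. Whether strand was used in counting is not given in the sources used here, and reads in those overlaps cannot be assigned with certainty without it. At most 1.16% of a gene's 50-base stretches, in Ctsl, occurred exactly in annotated transcripts of genes elsewhere in the genome. Copies with mismatches and copies outside annotated transcripts were not searched. Annotated genes that overlap at the same place held more: 32.4% of these stretches for Ctsd, 25.2% for Ctsl, 12.1% for Ctsb and 11.4% for Ctsa. The models that overlap Ctsd (Gm49369) and Ctsl (Gm47123 and Gm49230) were not among the genes counted.

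Many lysosomal genes carry upstream copies of the E-box CACGTG, or of its extended form TCACGTGA, which factors of the MiT/TFE family bind. Both read the same on either strand, and the longer form contains the shorter. The 250 bases before the annotated starts in RefSeq (GRCm38.p6) were searched for 8 of the 10 genes (all but Ctsb and Ctsh), and 4 of them held CACGTG and 2 held TCACGTGA, against 6.86% and 0.907% of the 27025 genes in the promoter table. The stretches found are shown for all 4 genes. Of these Ctsd, Ctsl and Lgmn were lower in PTEC DN RAR cells and Ctsa was not called, while Ctsc, also lower, was searched and held neither form, like the uncalled Ctss, Ctsz and Cst3. Each is printed 5′ to 3′ on the strand of its gene, with CACGTG in capitals.
Ctsd, chr7:142387908-142387937, minus strand, in an exon of an annotated transcript: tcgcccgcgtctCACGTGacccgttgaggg
Ctsd, chr7:142388055-142388077, minus strand, outside annotated genes: tccccCACGTGacctgtatccag
Ctsl, chr13:64370739-64370768, minus strand, in an exon of an annotated transcript: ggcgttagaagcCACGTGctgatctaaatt
Lgmn, second annotated start, chr12:102439124-102439153, minus strand, intronic: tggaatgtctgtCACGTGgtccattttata
Ctsa, second annotated start, chr2:164833749-164833772, plus strand, in an exon of an annotated transcript: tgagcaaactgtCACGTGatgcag
The first Ctsd stretch and the Ctsa stretch hold the extended form. The matches describe the letters of these windows, and binding was not measured.

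To ask whether the proteases of renal CD11B+ cells differed with the receptor in the tubule, PTEC DN RAR libraries were compared with Cre– controls. Ctsd, Ctsl, Ctsb, Lgmn and Ctsc were lower in PTEC DN RAR cells, by 0.53 to 1.16 on the log2 scale, and none of the 10 genes was called higher. Thus 5 of 10 passed as lower (edgeR quasi-likelihood test, adjusted p under 0.05), where 17.1% of all genes tested did. As higher 0 of 10 passed, where 23.6% did. At an unadjusted p under 0.05, 5 of the 10 were lower and 1, Cst3, was higher. At that level 7745 of the 15440 genes tested passed in either direction. DESeq2 also called Cst3 higher after adjustment. In 6 of 10 all PTEC DN RAR libraries lay below all controls, against 24.2% of genes tested, and in none did they lie above, against 29.2%. The median log2 fold change was −0.37 over the 10 genes and 0.04 over all genes tested. Because whole cell fractions were sequenced, fewer cells of a type and less RNA per cell cannot be told apart in any of these values.

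**Figure D1:**
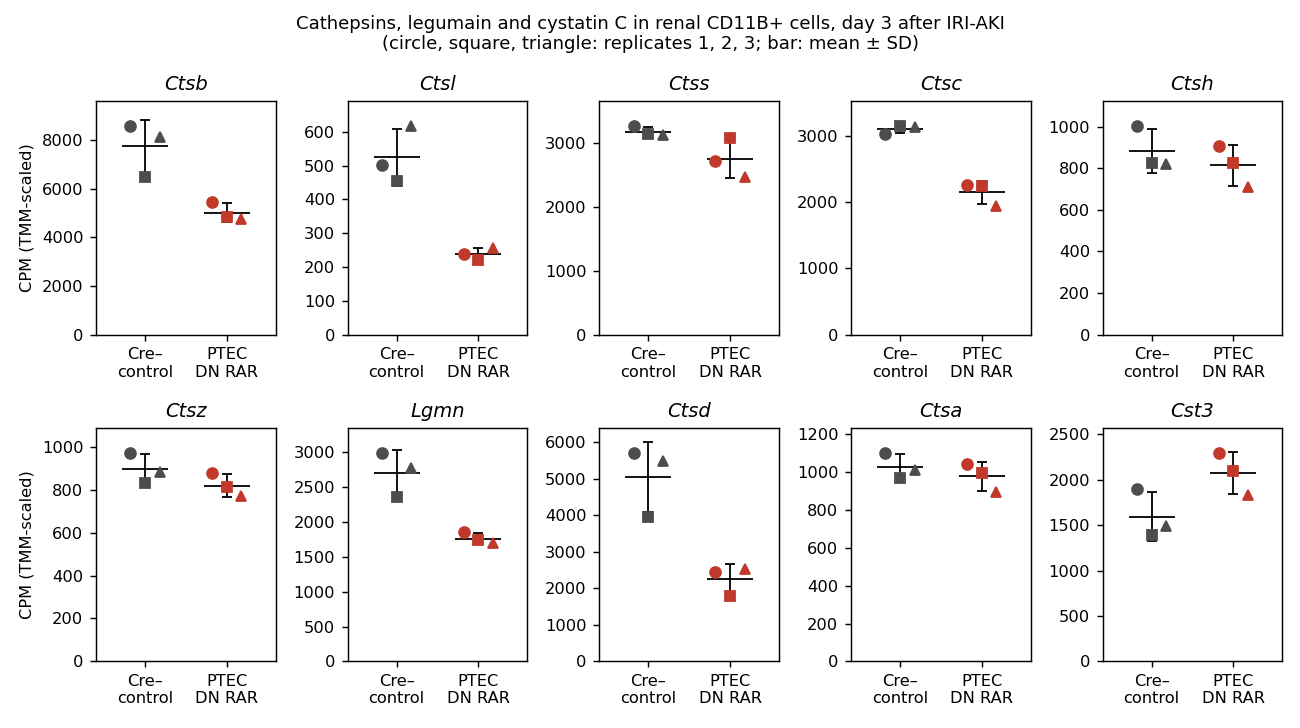
TMM-scaled CPM of the 10 genes (vertical axes, each from 0) in Cre– control (grey) and PTEC DN RAR (red) libraries, where circles, squares and triangles are replicates 1, 2 and 3 and bars are mean ± SD. All 3 red points lie under all grey points for Ctsb, Ctsl, Ctss, Ctsc, Lgmn and Ctsd, by the least for Ctss (3064 against 3112 CPM).

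Among the papain-like endopeptidases, Ctsl and Ctsb fell while Ctss did not pass the test. Ctsl, a broad endopeptidase of the lysosome, was at 501, 454 and 618 CPM in Cre– controls 1, 2 and 3 and at 238, 220 and 255 CPM in PTEC DN RAR libraries 1, 2 and 3. All PTEC DN RAR libraries stood below all controls, and controls varied more among themselves than PTEC DN RAR libraries did. The log2 fold change was −1.14 (SE 0.13, edgeR adjusted p = 0.000455), the smallest adjusted p among the 10 genes.

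Ctsb, an endopeptidase that also removes dipeptides from the C-terminus, had the highest read counts of the group, with 8589, 6492 and 8140 CPM in controls and 5450, 4837 and 4739 CPM in PTEC DN RAR libraries. Control 2 was the lowest control and still stood above all PTEC DN RAR libraries. Its log2 fold change was −0.63 (SE 0.15, edgeR adjusted p = 0.0103), and it was −0.40 (adjusted p = 0.0270) when libraries were scaled on 26 pan-leukocyte genes.

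Ctss, the endopeptidase that degrades the invariant chain in antigen-presenting cells and keeps activity at neutral pH, was at 3260, 3139 and 3112 CPM in controls and at 2712, 3064 and 2460 CPM in PTEC DN RAR libraries. The groups did not overlap, but PTEC DN RAR library 2 came close to the lowest control. The log2 fold change was −0.21 (95% interval −0.48 to 0.06, edgeR adjusted p = 0.194), its sign turned under pan-leukocyte scaling (0.02), and DESeq2 alone of the 15 alternatives called it lower (−0.25, adjusted p = 0.0464).

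Of the exopeptidases, Ctsc was lower and Ctsh and Ctsz did not differ beyond their spread. Ctsc, or dipeptidyl peptidase I, activates the serine proteases of neutrophils, mast cells and cytotoxic lymphocytes. It was at 3029, 3147 and 3136 CPM in controls and 2248, 2234 and 1946 CPM in PTEC DN RAR libraries, and its controls were the tightest of all 10 genes, with a coefficient of variation of 2.09%. The log2 fold change was −0.53 (SE 0.11, edgeR adjusted p = 0.00580), and −0.31 (adjusted p = 0.0275) with pan-leukocyte scaling.

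Ctsh, an aminopeptidase, was at 883 ± 105 CPM in controls and 814 ± 100.2 CPM in PTEC DN RAR libraries (SD, n = 3 each), and the log2 fold change was −0.12 (95% interval −0.41 to 0.17, edgeR adjusted p = 0.494). Ctsz, a carboxypeptidase also called cathepsin X, was at 895 ± 71.7 and 819 ± 54.9 CPM, with a log2 fold change of −0.13 (95% interval −0.36 to 0.11, edgeR adjusted p = 0.351). For both genes the libraries overlapped, and the lower ends of the intervals reached a fall as large as −0.41 and −0.36. Their differences turned to 0.11 and 0.10 under pan-leukocyte scaling.

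Lgmn and Ctsd, which belong to other protease families, both fell. Legumain cuts after asparagine and processes several cathepsins to their mature forms. Lgmn was at 2997, 2355 and 2783 CPM in controls and 1853, 1736 and 1701 CPM in PTEC DN RAR libraries, with a narrow spread in the latter (coefficient of variation 4.51%) and no overlap. The log2 fold change was −0.62 (SE 0.12, edgeR adjusted p = 0.00478), and −0.39 (adjusted p = 0.0217) with pan-leukocyte scaling.

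Ctsd, the major aspartic endopeptidase of lysosomes, was at 5712, 3962 and 5479 CPM in controls and 2456, 1778 and 2532 CPM in PTEC DN RAR libraries. Library 2 was the lowest of both groups, and the highest PTEC DN RAR library remained far under the lowest control. The log2 fold change of −1.16 (SE 0.19, edgeR adjusted p = 0.00220) had the widest standard error of the 10 genes and was close to that of Ctsl (−1.14), which was the more negative of the pair in 3 of 15 alternatives. Ctsa, which also protects beta-galactosidase and neuraminidase 1 from degradation, was at 1103, 970.1 and 1011 CPM in controls and at 1042, 994 and 896 CPM in PTEC DN RAR libraries. These overlapped, and the log2 fold change was −0.07 (95% interval −0.31 to 0.16, edgeR adjusted p = 0.599), or 0.16 under pan-leukocyte scaling.

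**Figure D2:**
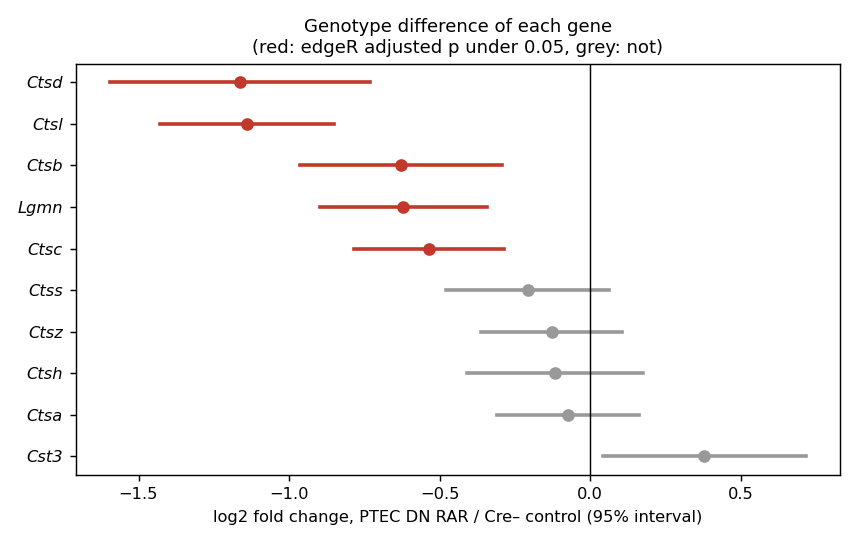
Log2 fold change of PTEC DN RAR against Cre– control for each gene (points, horizontal axis) with its 95% interval (lines), red where the edgeR adjusted p was under 0.05 and grey where not. The 5 red intervals, from Ctsd at −1.16 to Ctsc at −0.53, end below 0, and only the Cst3 interval (0.04 to 0.72) lies above it.

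Cst3 was the 1 gene of the 10 with a higher mean in PTEC DN RAR cells. It was at 1902, 1390 and 1492 CPM in controls and 2298, 2094 and 1831 CPM in PTEC DN RAR libraries. Control 1 lay above PTEC DN RAR library 3, so the groups overlapped. The log2 fold change of 0.38 (SE 0.15) had an unadjusted p of 0.0311 and an edgeR adjusted p of 0.0693, and 6 of 15 alternatives called it: no filter, unscaled library size, pan-leukocyte scaling (0.61, adjusted p = 0.00341), the replicate block (0.39, adjusted p = 0.0346), DESeq2 (0.34, adjusted p = 0.0463) and leaving out Cre– control 1 (0.52, adjusted p = 0.0182).

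Summed over the 9 proteases, reads came to 27168, 22177 and 25978 CPM in controls and 17786, 16499.7 and 16006 CPM in PTEC DN RAR libraries. That was 2.51% ± 0.26 of the scaled library in controls and 1.68% ± 0.092 in PTEC DN RAR cells (SD, n = 3 each), with all PTEC DN RAR libraries below all controls. The log2 difference was −0.58, and −0.35 with pan-leukocyte scaling.

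**Figure D3:**
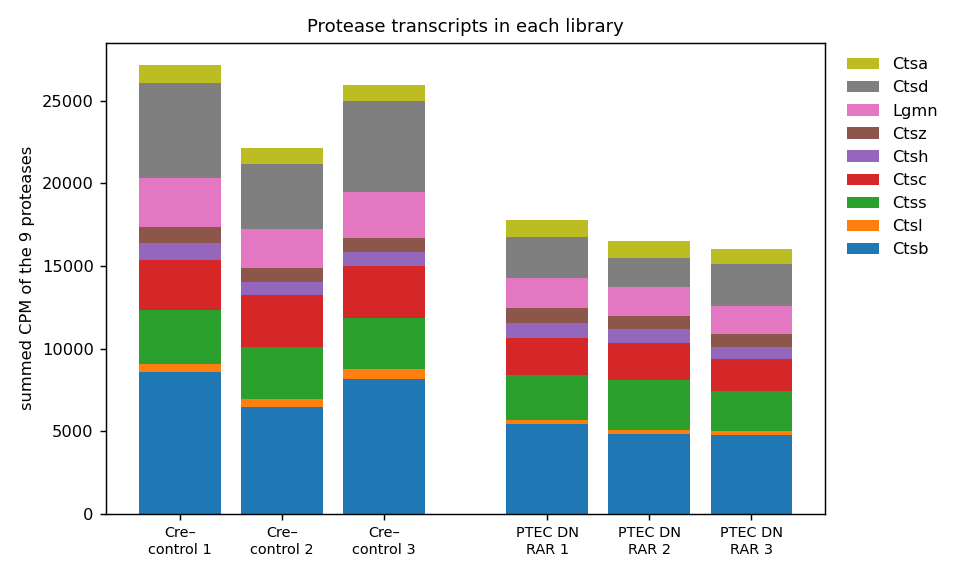
Summed TMM-scaled CPM of the 9 protease genes (vertical axis, from 0) in each of the 6 libraries, with 1 colour per gene. The 3 control columns stand between 22177 and 27168 CPM and the 3 PTEC DN RAR columns between 16006 and 17786 CPM, and the Ctsd and Ctsb layers narrow most in CPM.

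As a share of this sum, Ctsd went from 20.0% ± 1.84 to 13.5% ± 2.54 of protease reads and Ctsl from 2.09% ± 0.27 to 1.42% ± 0.15. Ctss went from 12.7% ± 1.25 to 16.4% ± 1.89, Ctsa from 4.11% ± 0.24 to 5.83% ± 0.22, Ctsh from 3.52% ± 0.32 to 4.85% ± 0.36 and Ctsz from 3.57% ± 0.18 to 4.89% ± 0.074 (SD, n = 3 each). The groups did not overlap for these 6 genes, each with an exact permutation p of 0.1, the smallest that 3 against 3 libraries can give. Of all genes tested, 1.46% had a ratio to this sum that was lower without overlap and 67.8% one that was higher without overlap, so the higher shares are nothing particular to these 4 genes. Ctsb (30.7% and 29.9%), Ctsc (12.5% and 12.8%) and Lgmn (10.8% and 10.5%) overlapped. These shares are tied to one another, since a fall in Ctsd raises the others.

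Ratios of genes within a library do not depend on how libraries are scaled. Relative to Ctss, a protease of antigen-presenting cells that did not pass the test, Ctsd, Ctsl, Ctsb, Lgmn and Ctsc lay below all controls in each PTEC DN RAR library, with mean differences of −0.95, −0.92, −0.41, −0.40 and −0.32 on the log2 scale (exact permutation p = 0.1 each, n = 3 against 3). For Ctsa, Ctsh and Ctsz the ratio to Ctss overlapped, with differences of 0.14, 0.10 and 0.09 (exact permutation p = 0.3, 0.5 and 0.4). Of all genes tested, 6.46% had a ratio to Ctss that was lower without overlap. Ctss was made the reference, and these ratios were added, after the values had been seen.

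Relative to Cst3, all 9 proteases were lower without overlap, from −0.46 for Ctsa to −1.55 for Ctsd on the log2 scale, and each exact permutation p was 0.1. Of all genes tested, 37.9% had a ratio to Cst3 that was lower without overlap. All 9 ratios share the higher Cst3 mean as their denominator, and Ctsa, whose own libraries overlapped, is among them. There were 14.3, 16.0 and 17.4 protease reads per Cst3 read in controls and 7.74, 7.88 and 8.74 in PTEC DN RAR libraries, so control 1, with the most Cst3 among controls, had the lowest control ratio. Neither read ratio is a ratio of proteins or of enzyme activity.

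**Figure D4:**
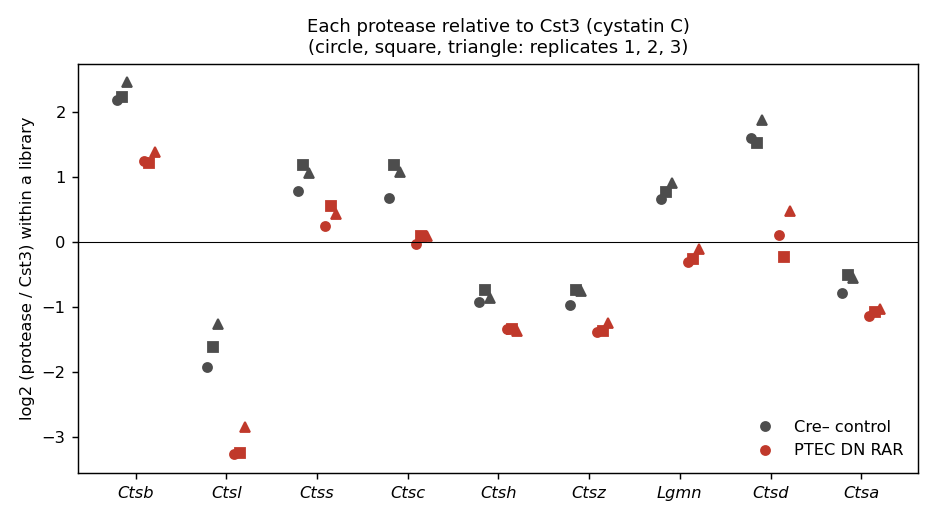
Log2 ratio of each protease to Cst3 within a library (vertical axis), with Cre– control libraries in grey and PTEC DN RAR libraries in red, 1 point per library. Every red point lies under all grey points of the same gene, with mean differences from −0.46 (Ctsa) to −1.55 (Ctsd).

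Levels can be compared between genes only per length, as CPM per kilobase of annotated exon. In controls Ctss (2335) and Ctsd (2148) stood highest and overlapped, followed by Ctsb (1279), Cst3 (1259) and Lgmn (1167), each overlapping with the next. Ctsz (621), Ctsc (534), Ctsa (218), Ctsh (196) and Ctsl (80.8) came after, with an overlap only between Ctsa and Ctsh. In PTEC DN RAR cells Ctss (2022) and Cst3 (1638) stood highest and overlapped, and Cst3 lay above Ctsd (959) in every library. Over all 6 libraries the 10 genes ranked between 16 (Ctss) and 687 (Ctsl) of 15393 genes on this scale. Exon unions can include rarely used exons, so long ones such as that of Ctsl may understate a level per kilobase. The use of single exons was not measured.

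Libraries also differed within a group across most of the 10 genes. Among controls, replicate 1 was highest for 8 of 10 genes and replicate 2 lowest for 7 of 10. Among PTEC DN RAR libraries, replicate 1 was highest for 7 and replicate 3 lowest for 8. All 5 calls nevertheless held with any 1 library left out, with log2 fold changes of −1.35 to −1.02 for Ctsd, −1.27 to −1.05 for Ctsl, −0.78 to −0.55 for Ctsb, −0.75 to −0.55 for Lgmn and −0.57 to −0.51 for Ctsc.

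Other members of these protease and inhibitor families were taken from lists. Of 15 further cathepsins 5 passed the filter, and 1 of them, Ctsf, a papain-like endopeptidase, was higher: 23.7, 26.5 and 26.1 CPM in controls and 59.0, 50.7 and 59.7 CPM in PTEC DN RAR libraries (log2 fold change 1.15, SE 0.10, edgeR adjusted p = 0.000203). Ctso (61.7 and 60.1 CPM), Ctse (13.3 and 14.4), Ctsk (2.25 and 2.09) and Ctsw (0.27 and 0.42) overlapped and were not called. Ctsk, the bone-matrix-degrading neighbour of Ctss, lies 17423 bp from it and was at about 2 CPM in both groups.

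Of 19 other cystatins 4 passed the filter, and 3 of these were lower. Cstb, the intracellular cathepsin inhibitor stefin B, was at 199, 139 and 158 CPM in controls and 86.9, 73.5 and 86.5 CPM in PTEC DN RAR libraries (log2 fold change −1.01, SE 0.14, edgeR adjusted p = 0.00103), opposite in sign to the Cst3 difference. Stfa2l1 (5.36 and 2.46 CPM, −1.12) and Gm5483 (2.42 and 0.78 CPM, −1.62) belong to the stefin A cluster, whose near-identical copies make their counts uncertain. The Stfa2l1 call was lost without Cre– control 3 or PTEC DN RAR library 2 or 3 (−1.05 to −0.89, adjusted p 0.0566 to 0.0855) and under the replicate block (adjusted p = 0.0572). Cst7 (3.99 and 3.31 CPM) was not called.

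Of 8 genes tested from a list of other lysosomal peptidases, Scpep1 fell (353 and 279 CPM, −0.34, edgeR adjusted p = 0.0161), and Cpq (70.5 and 102 CPM, 0.53, adjusted p = 0.00855) and Tinagl1 (14.0 and 42.9 CPM, 1.61, adjusted p = 0.00153) rose. Scpep1 encodes a serine carboxypeptidase related to cathepsin A, and Cpq a carboxypeptidase of plasma and lysosomes. Tinagl1 is cathepsin-like but lacks catalytic activity and sits in basement membranes, so Cpq is the peptidase among these higher calls, and the counts of higher lysosome genes given here include Tinagl1. Without Cre– control 3 Cpq was no longer called (0.42, adjusted p = 0.0566), and Scpep1 was not under pan-leukocyte scaling (−0.11, adjusted p = 0.419). The 7 proteases that Ctsc activates summed to 5.26 to 13.2 CPM in controls and 1.91 to 4.87 CPM in PTEC DN RAR libraries. Of these, 3 passed the filter and 1 was called lower (Prtn3, proteinase 3 of neutrophils and monocytes, 4.48 and 0.64 CPM). Without PTEC DN RAR library 1 all 3 tested were called lower.

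Most genes of class II presentation rose: of a list of 9 genes, which holds chains of the class II molecules that receive peptides made by these proteases together with the invariant chain, H2-DM loading factors, the inducer Ciita and a thiol reductase, 7 were higher and 1 lower. Cd74, the invariant chain that Ctss trims, rose from 9817 ± 1540.1 to 19599 ± 4114 CPM (SD, n = 3 each; log2 fold change 1.00, edgeR adjusted p = 0.00539). H2-Eb1 (1.10) and H2-Ab1 (0.98) rose alike, and Ifi30, the thiol reductase that opens disulfides of lysosomal antigens, fell (623 and 391.7 CPM, −0.67, adjusted p = 0.00489).

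**Figure D5:**
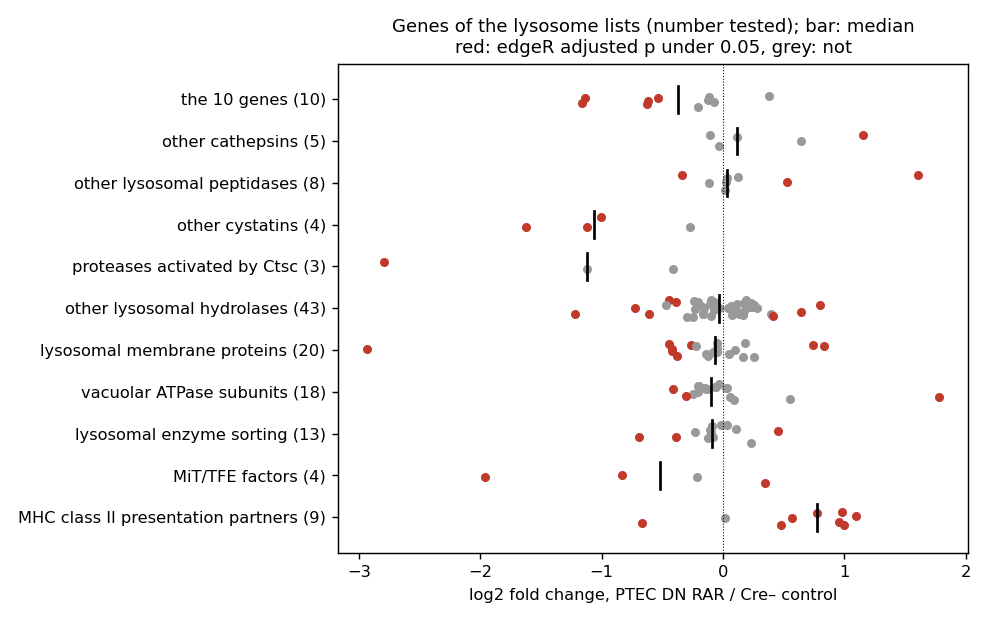
Log2 fold change of PTEC DN RAR against Cre– control (horizontal axis) for the 10 genes and for each list of lysosome genes, with the number tested in brackets, points in red where the edgeR adjusted p was under 0.05 and a bar at each median. The 10 genes have a median of −0.37, hydrolases −0.04, membrane proteins −0.07 and class II partners 0.77.

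Over the rest of the lysosome calls went both ways, with a balance that depended on the scaling and on the lists. In the lists without the 10 genes, 127 genes were tested, of which 23 (18.1%) were lower and 18 (14.2%) higher, with a median log2 fold change of −0.06, beside 17.1% and 23.6% of all genes. With pan-leukocyte scaling 12 were lower and 38 higher, and without the class II, Ctsc-activated and MiT/TFE lists 19 of 111 were lower and 10 higher. Of 43 hydrolases of sugars, lipids and nucleic acids, 5 fell, among them Gla (alpha-galactosidase, 95.1 and 40.7 CPM, −1.22, edgeR adjusted p = 0.000398), Lyz2 (lysozyme, −0.73) and Galns (−0.61), and 3 rose: Smpd1 (acid sphingomyelinase, 0.80), Arsb (0.64) and Neu1 (0.41). With pan-leukocyte scaling 3 hydrolases were lower and 16 higher, 5 were higher without Cre– control 1, without PTEC DN RAR library 3 or with unscaled library size, and 6 were higher with at least 10 counts in every library. The Neu1 call was lost in 4 of the 6 fits that left out a library (without Cre– control 2 or 3 or PTEC DN RAR library 2 or 3, adjusted p 0.105 to 0.181), under the replicate block (adjusted p = 0.0843) and with DESeq2 size factors in edgeR (0.37, adjusted p = 0.0644).

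Of 20 lysosomal membrane proteins 6 fell and 2 rose. Gpnmb, a transmembrane glycoprotein of macrophages, was at 263, 134.5 and 256 CPM in controls and 33.6, 25.7 and 26.2 CPM in PTEC DN RAR libraries (−2.93, SE 0.25, edgeR adjusted p = 0.000208). Cd68 (−0.44) and Lamp1 (−0.42) also passed as lower and Abca2 (0.83) and Tmem106b (0.74) as higher. Lamp1 was not called without Cre– control 1 or 3 or PTEC DN RAR library 1 or 2 (−0.46 to −0.34, adjusted p 0.0509 to 0.0787), and with pan-leukocyte scaling 1 membrane protein was lower and 6 were higher, with neither Cd68 nor Lamp1 called.

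Few genes of the proton pump that acidifies the lysosome, or of enzyme sorting, passed the test. Of 18 vacuolar ATPase subunits Atp6v1b2 (−0.41) and Atp6v1c1 (−0.31) fell, neither of them with pan-leukocyte scaling (−0.17 and −0.08), and Atp6v1b1, the subunit isoform of renal intercalated cells, rose (21.3 and 73.5 CPM, 1.78, edgeR adjusted p = 0.00391). Of 13 sorting genes Ap1b1 (−0.69) and Ap1s1 (−0.39), subunits of the AP-1 clathrin adaptor, fell, the latter not with pan-leukocyte scaling (−0.16), and Gnptg (0.46), of the enzyme that makes mannose 6-phosphate tags, rose. The calls of Atp6v1c1 (without Cre– control 3 or PTEC DN RAR library 1 or 2, adjusted p 0.0548 to 0.0735), Ap1s1 (without PTEC DN RAR library 2, adjusted p = 0.0503) and Gnptg (without Cre– control 2 or 3, adjusted p 0.0609 to 0.0790) were lost when single libraries were left out. The count of lower pump subunits ranged from 1 to 5, the latter without Cre– control 2, and with pan-leukocyte scaling no pump subunit and 1 sorting gene were lower and 2 of each list were higher. The replicate block also gave 2 higher in each list, and at least 10 counts in every library 2 higher sorting genes.

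The 4 genes of the MiT/TFE factors, which bind the E-box shown above, split. Tfec, the member best known from macrophages, was at 27.2, 17.9 and 31.6 CPM in controls and 6.07, 6.06 and 7.59 CPM in PTEC DN RAR libraries (log2 fold change −1.96, SE 0.21, edgeR adjusted p = 0.000399). Mitf fell from 62.3 ± 1.45 to 35.0 ± 5.27 CPM (SD, n = 3 each; −0.83, SE 0.11, edgeR adjusted p = 0.00106). Tfeb rose (49.1 and 62.3 CPM, 0.34, adjusted p = 0.0289), a call lost without Cre– control 2 or 3 or PTEC DN RAR library 1 or 3 (adjusted p 0.0977 to 0.163). Tfe3 was at 129 and 111 CPM (−0.21, adjusted p = 0.0642), and was called lower by DESeq2 (−0.25, adjusted p = 0.0206), with its size factors in edgeR (−0.25, adjusted p = 0.0334) and without Cre– control 2 (−0.30, adjusted p = 0.0399).

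Markers of other cells differed between the groups in both directions, and their part in the protease differences was not tested beyond the values given here. Of 8 infiltrating monocyte markers 7 were lower, from F13a1 (−2.35) to Ccr2 (−0.73), with summed levels of 3812 to 4113 CPM in controls and 1611 to 1673 CPM in PTEC DN RAR libraries. Of 10 neutrophil markers 5 were lower (summed 471 to 849 and 299 to 426 CPM). Of 10 resident macrophage markers 1 was lower and 2 higher, and the means of their log2 levels overlapped. Their summed levels were 26727 to 32113 CPM in controls and 34335 to 47883 CPM in PTEC DN RAR libraries, but without Cd74, which is also a class II gene, the other 9 summed to 16627 to 21529 CPM and 18802 to 24124 CPM and overlapped, a sum added after the values had been seen. Of 8 genes that CD11B+ leukocytes share 2 were lower. Among dendritic cell markers 1 of 8 was lower and 3 higher and among B cell markers 1 of 4 was higher, while NK cell markers summed to 12.96 to 24.8 CPM in controls and 14.3 to 16.6 CPM in PTEC DN RAR libraries. No marker in these lists was at 0 in all libraries.

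Markers of the nephron and vessels were higher nearly throughout, with 16 of 16 for the proximal tubule, 5 of 5 for the thick ascending limb, 4 of 4 for the distal convoluted tubule, 6 of 6 for endothelium and 4 of 5 for podocytes. Proximal tubule cells themselves contain lysosomes, and several of the 10 genes, Cst3 and Ctsb among them, are active in many cell types. With the mean of the proximal tubule markers as a covariate the log2 fold changes were −1.36 for Ctsl, −0.86 for Ctsd, −0.83 for Lgmn, −0.77 for Ctsb, −0.52 for Ctsc and 0.29 for Cst3, so these 6 signs held. Ctss was at −0.63, against −0.21 without the covariate, and Ctsa, Ctsh and Ctsz were at −0.11, −0.01 and −0.12. In this fit 0 genes in the whole table passed the adjusted test (514 at an unadjusted p under 0.05, none of them among the 10). All PTEC DN RAR libraries lie above all controls on that covariate, and tubular RNA and genotype cannot be told apart.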

How the data were processed

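The authors deposited raw counts of reads per Ensembl gene for the 6 polyA RNA-Seq libraries. The submitters' processing notes name STAR 2.5.0a, HTSeq 0.6.1 and GRCm38; the annotation release and the use of strand are not given in the sources used here. Reads aligned to more than 1 place (42.9% to 47.8% per library) are not in the gene counts. Of 46612 gene lines 9 repeated an identifier and were collapsed; 46091 identifiers were found in GENCODE M21 for coordinates and exon lengths.

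Genes were kept by filterByExpr, libraries were normalised by TMM, and the edgeR 4.0.16 quasi-likelihood test was run in R 4.3.3 with genotype as the only term and Benjamini-Hochberg adjustment over 15440 genes. Intervals are 95% and standard errors are on the log2 scale. Within-library ratios and shares were compared by exact permutation of the libraries (two-sided), which with 3 against 3 cannot go below p = 0.1. Alternatives were no filter, at least 10 counts in every library, unscaled library size, DESeq2 size factors, scaling on 26 pan-leukocyte genes, a replicate block, the proximal tubule covariate, limma-voom (limma 3.58.1), DESeq2 1.42.0 and leaving out each library. The code was tested on simulated counts. Promoter sequences are those of RefSeq.

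The 10 genes, the lists and the marker sets were chosen with earlier results of these data known. Named were all 10 genes, every tested gene of the other cathepsins, cystatins and MiT/TFE factors, and, for the other lists, up to 3 called genes with the largest rise and fall at a mean of at least 10 CPM; Prtn3 was named after its value was seen. Counts of 3 reads correspond to 0.0645 to 0.102 CPM. Tables were handled in Python 3.11.15 with pandas 2.3.3 and scipy 1.17.1, and plots were drawn in matplotlib 3.10.9.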

Additional observations from a re-analysis of the deposited data

How the results depend on the processing

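The 5 lower calls held in 14 of 15 alternatives, and the proximal tubule covariate took them to 0. The higher count became 1 (Cst3) with no filter, unscaled library size, pan-leukocyte scaling, the replicate block and DESeq2. Leaving out a library gave 5 lower and 0 to 1 higher of the 10 genes, 1874 to 2824 lower and 2433 to 3699 higher over all genes, 18 to 28 lower and 12 to 21 higher in the other lysosome lists, and −0.67 to −0.52 for the log2 difference of the protease sum. Pan-leukocyte scaling moved the median of all genes from 0.04 to 0.27, so Ctsa (0.16), Ctsh (0.11), Ctsz (0.10) and Ctss (0.02) stood above 0 and below that median; it gave 657 lower and 5125 higher genes in place of 2636 and 3640, 12 lower and 38 higher in the other lysosome lists, and −0.35 for the protease sum. That median shift is built into the scaling, since 10 of the 26 genes were called lower. The covariate gave 0 lower and 0 higher genes, in all and in the lists, and turned the signs of Lyz2 (0.000602), Neu1 (−0.888) and Ap1s1 (0.0483), none of them called. Without the class II, Ctsc-activated and MiT/TFE lists, a choice made after seeing the data, 10 lysosome genes were higher and 19 lower. Same-numbered libraries deviated together with correlations of −0.01 to 0.21, and not every library correlated best with its own number. With 3 libraries a group these correlations cannot show whether replicate numbers paired the libraries. The replicate block changed no call among the 10 genes but that of Cst3 (adjusted p = 0.0346) and moved no count of calls over all genes by more than 1.5 times. Leaving 3 against 2 libraries assumes that both groups vary alike. With 3 libraries a group, the intervals of Ctss, Ctsh, Ctsz and Ctsa still reach −0.48, −0.41, −0.36 and −0.31.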
